A study of Mus musculus with 6 samples.

Results

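The probes described here do not stand for named genes. They were designed on stretches of the mouse genome that lay between annotated genes and were thought to give rise to long noncoding RNA, and the scanner files name each of them by its interval and strand, F for forward and R for reverse, on the mm9 build. The array held 4449 such interval probes among 56605 non-control probes, in 3229 intervals. Members were chosen by measured values: the scanner had to call the probe well above background on every array of 1 group or of both. This left 1812 members (889 forward, 923 reverse) in 1495 intervals. Total RNA of the renal cortex of male mice aged 16 weeks had been hybridised to Agilent arrays in 1 colour, with 3 mice in each group and an array for each mouse. Genotypes are given as db/m and db/db, where db is a loss-of-function allele of the leptin receptor gene Lepr, heterozygous mice are lean and homozygous mice are obese and diabetic. The paper's account of the arrays differs from these labels, since there the mice hybridised are db/db, with or without Huangqi decoction (HQD), a herbal extract, which the treatment protocol in the labels names as well. Its wider animal study also had db/m controls and several HQD doses. The groups are therefore named by their labels, and a positive difference means a higher signal in the group labelled db/m.

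Long intergenic noncoding RNAs are transcribed by RNA polymerase II, are often capped, spliced and polyadenylated, and do not code for protein. Many were first located from chromatin marks of active promoters and of elongating polymerase outside known genes, before their exons and sometimes their strand were known, so that an interval was probed on either strand. Some act as scaffolds or in cis on neighbouring genes, some host small nucleolar RNAs or microRNAs, and most have no known role in the kidney.

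The following 60-base probes carry the results described further on, and each is written 5′ to 3′ as the scanner file gives it, in the sense of the strand it was designed to detect. The first 4 are the members with the largest increase (chr9:56910941-56911000) and the largest decrease among those detected on every array with groups that did not overlap (chr16:17834993-17835052), a member inside the interval of the noncoding RNA Snhg18 (chr15:32170306-32170365) and the member with the smallest p-value (chr9:78116774-78116833). Capitals in the last of these mark 20 bases shared with a probe for a predicted gene on the same chromosome.
chr9:56910620-56919495_R: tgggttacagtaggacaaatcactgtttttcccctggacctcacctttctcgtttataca
chr16:17833211-17835112_F: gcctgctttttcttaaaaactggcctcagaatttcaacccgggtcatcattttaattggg
chr15:32167516-32174417_R: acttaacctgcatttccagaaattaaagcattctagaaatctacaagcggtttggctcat
chr9:78104935-78116974_F: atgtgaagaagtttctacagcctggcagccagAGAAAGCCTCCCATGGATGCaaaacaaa
The next pair detects opposite strands of 1 interval near Lepr (chr4:98945305-98945364 forward and chr4:98945330-98945389 reverse), and capitals mark the 35 bases in which the probes are complementary.
chr4:98943050-98959998_F: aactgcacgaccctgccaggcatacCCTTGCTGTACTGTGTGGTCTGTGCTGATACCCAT
chr4:98943050-98959998_R: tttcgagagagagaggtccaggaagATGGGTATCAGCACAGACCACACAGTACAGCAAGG
Some bright members are near copies of probes for abundant protein-coding genes. Capitals mark the 36 bases shared with a probe for Cox5b, a subunit of cytochrome c oxidase, and the 28 bases shared with a probe for Rps29, a protein of the small ribosomal subunit. The interval probe of the first pair lies at chr4:33364816-33364875, that of the second has no mapped position in the files, and each gene probe follows its interval probe.
chr4:33364774-33364898_R: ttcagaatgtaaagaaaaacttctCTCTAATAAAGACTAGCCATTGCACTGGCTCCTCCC
Cox5b: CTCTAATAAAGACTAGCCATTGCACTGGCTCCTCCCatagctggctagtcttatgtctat
chr7:108209996-108216032_R: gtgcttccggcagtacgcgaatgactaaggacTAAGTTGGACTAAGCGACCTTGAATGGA
Rps29: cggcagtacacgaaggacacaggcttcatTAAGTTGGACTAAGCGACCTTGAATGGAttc
The last group shows what the designs can hold. Capitals mark the polyadenylation signal AATAAA in one of the brightest members (chr17:17482318-17482377), the 44 bases shared with the Mir363 hairpin (chrX:50094854-50094913) and the 49 bases shared with the Mirlet7c-2 hairpin (chr15:85537022-85537081).
chr17:17481706-17482457_R: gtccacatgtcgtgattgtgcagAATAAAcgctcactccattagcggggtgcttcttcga
chrX:50087925-50101700_R: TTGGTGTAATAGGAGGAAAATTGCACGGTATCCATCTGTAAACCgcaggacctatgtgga
chr15:85412264-85549139_F: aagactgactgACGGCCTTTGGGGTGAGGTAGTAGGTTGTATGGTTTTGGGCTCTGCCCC

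Values are log2 signals relative to the 75th percentile of each array, so that 0 is the level of a probe at that percentile and negative values are dimmer. Markers of the proximal tubule, podocyte, thick ascending limb, distal convoluted tubule and collecting duct were well above background on all 6 arrays, and so were endothelial, macrophage, leukocyte and haemoglobin genes. Of the markers of neighbouring or other tissues, Adipoq and Cfd of adipose tissue, Cyp11b1 of the adrenal cortex and Apoa1 of the liver had such a call on 0 arrays, Cyp11a1 of the adrenal cortex on 1, Plin1 of adipose tissue on 3 and Alb of the liver on all 6. Ptprc of leukocytes (0.55), Adgre1 of macrophages (0.37) and Slc12a3 of the distal convoluted tubule (-0.91) differed between the groups at an unadjusted p under 0.05, and the part of cell composition in the results below was not tested. The arrays lay on 3 slides. Slide 1 held replicate 1 of labelled db/m with replicate 3 of labelled db/db, slide 2 the other arrays labelled db/m, and slide 3 the other arrays labelled db/db. Labelled db/db replicate 3 stood apart among the interval probes, since it was the highest of its group for 57.3% of members, against 27.2% of all tested probes.

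Between 38% and 49.5% of the interval probes were well above background on an array, against 51.6% to 59% of all probes. The lowest shares were on the slide 3 arrays labelled db/db (40.5% and 38%), whereas labelled db/db replicate 3 reached 47.7%, which lay within the range of the arrays labelled db/m (43.6% to 49.5%). Of the 4449 interval probes, 1572 passed the rule in both groups, 211 in labelled db/m alone, 29 in labelled db/db alone, 2628 in neither group, and 9 had an outlier flag. Among all probes, 1558 passed in labelled db/m alone and 476 in labelled db/db alone. The rule used these calls, so they are given as a description. The 240 members that entered by 1 group had a median signal of -3.26 in that group (range -3.91 to -1.70), and the 257 probes that missed by 1 array had a median of -3.75 (range -4.58 to -2.57).

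**Figure D1:**
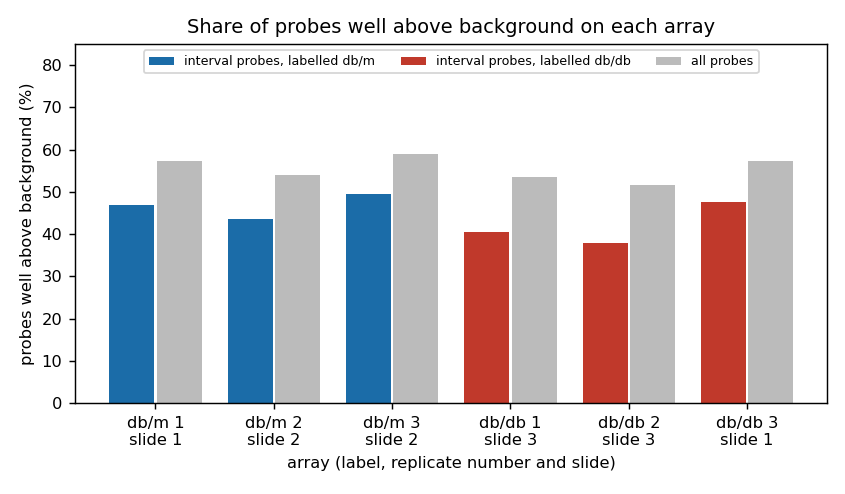
Percentage of probes well above background on each of the 6 arrays, for the 4440 interval probes without an outlier flag (blue, labelled db/m; red, labelled db/db) and for all probes (grey), with the slide under each array. Both arrays on slide 3 have the lowest shares of interval probes, 40.5% and 38%, and labelled db/db replicate 3 on slide 1 has 47.7%.

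Members were on the whole somewhat higher in labelled db/m. Their median log2 difference was 0.14, against -0.03 over all 29889 probes tested, and 1239 of 1812 (68.4%) were above 0, against 46.5% of all probes. At an unadjusted p under 0.05, 186 members were higher (10.3%; background over all probes 6.9%) and 83 were lower (4.58%; background 10.8%). A change of at least 2-fold at that p was met by 29 members in the higher direction (background 0.783%) and by 2 in the lower direction (background 0.177%). The 3 arrays of each group did not overlap for 152 higher members (background 7.75%) and 133 lower members (background 16.4%). A member that entered through 1 group had to differ to some extent. Among the 1572 members detected in both groups the median was 0.11, with 123 higher (7.82%) and 78 lower (4.96%) at that p. Over all probes detected on 6 arrays the median was -0.04, with 5.50% higher and 11.2% lower. Of the 1572 members, 9 were higher and 1 lower by at least 2-fold at that p. Their arrays did not overlap for 110 higher and 129 lower. Among all 27855 probes detected on 6 arrays, these counts were 86 and 40 by fold and 1910 and 4794 without overlap. With Benjamini-Hochberg adjustment in limma, 0 members passed 0.05 (background 0%), and the lowest adjusted p was 0.240. The methods' t-test also brought 0 past it, with 81 higher (background 4.28%) and 79 lower (background 11.2%) before adjustment. No named member below passed the adjusted threshold. In tissue RNA, fewer cells of a type and less RNA per cell cannot be told apart.

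Leaving out single arrays moved these counts. The members' median was 0.07 when replicate 2 of labelled db/db was left out and 0.23 when its replicate 3 was, the lowest and highest over single arrays. It was 0.07 with quantile normalization, 0.06 with normexp and 0.07 in the deposited matrix. Without labelled db/db replicate 3, 484 members were higher and 11 passed an adjusted p of 0.05, where 11.2% of all tested probes were higher and 0.431% passed. Without labelled db/m replicate 2, 136 were higher and 1 passed, where 10.9% of all tested probes were higher and 0.706% passed. The higher count fell to 101 without labelled db/m replicate 3 (background 3.73%) and to 84 without labelled db/db replicate 2 (background 3.48%). The lower count fell to 38 without labelled db/m replicate 3 (background 4.01%) and to 43 without labelled db/db replicate 1 (background 5.57%). The count of 29 higher by at least 2-fold became 63 or 16 when replicate 1 or replicate 3 of labelled db/m was left out, and 10 or 110 when replicate 2 or replicate 3 of labelled db/db was left out. On slide 1, the only slide with both groups, the median over members was -0.15 (all probes -0.04), with 1 array per group, and between slides 2 and 3 it was 0.26 (all probes -0.05). Slide and group cannot be told apart in the second comparison, and the members' median had the opposite sign within the shared slide. Centring on the array median moved all probes by about the same amount (their median became -0.21 and that of the members -0.04). This scaling shifts every probe of an array alike and leaves the distance of 0.17 between members and all probes as it was. That distance was 0.08 with quantile normalization, 0.10 with normexp and 0.08 in the deposited matrix.

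**Figure D2:**
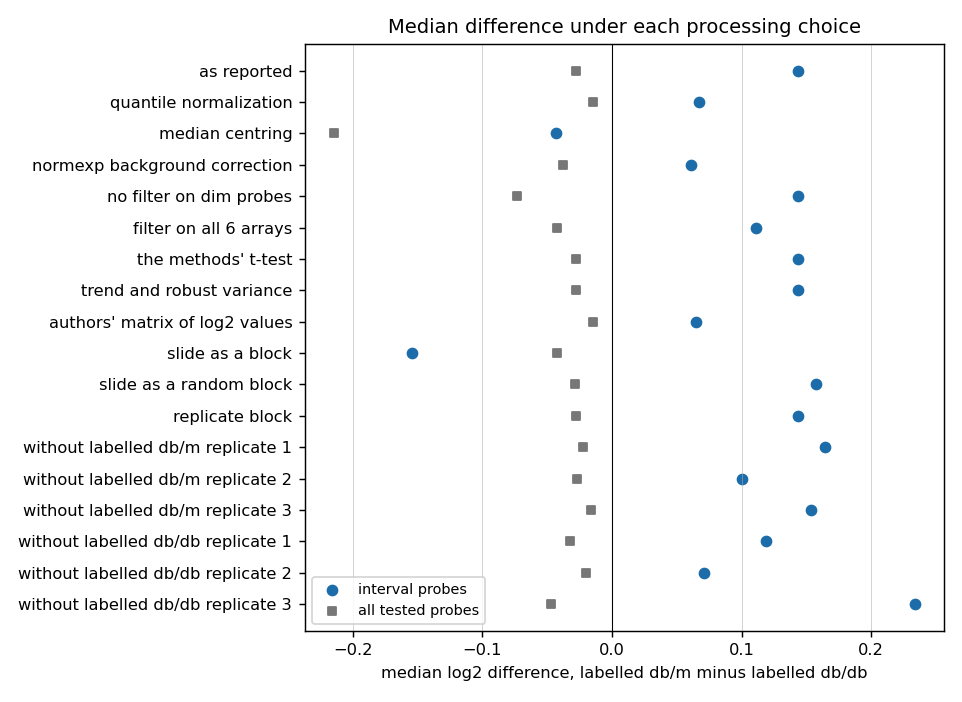
Median log2 difference (labelled db/m minus labelled db/db) over the interval probes (circles) and over all tested probes (squares) as reported and under each alternative. The members' median lies above that of all probes in every line but the one with slide as a block, where it is -0.15 against -0.04.

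Among members detected on every array whose groups did not overlap, the largest increase was that of chr9:56910620-56919495_R. It read -1.46, -0.46 and -0.68 in labelled db/m and -2.32, -2.21 and -2.14 in labelled db/db. The arrays did not overlap, and those labelled db/db lay within a narrow range. The difference was 1.36 ± 0.26 (SE, n = 3 per group; limma adjusted p = 0.240). The interval ends 149 bases from a probe for Ptpn9, a protein tyrosine phosphatase on the opposite strand, whose own difference was -0.02 ± 0.10. On chromosome 10, chr10:116814196-116920696_R read -0.30, -0.58 and -0.97 in labelled db/m and -1.75, -2.53 and -1.04 in labelled db/db. Its groups were apart only narrowly, because labelled db/db replicate 3 came close to labelled db/m replicate 3, and the difference was 1.16 ± 0.38. Cpsf6, a factor of pre-mRNA 3′ end processing 18078 bases away on the same strand, differed by 0.10 ± 0.10 by its brightest probe and by -0.29 and 0.37 by its other probes.

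Shorter intervals made up much of the rest of the higher group. The 293-base interval chr3:125556184-125556476_R was higher by 1.05 ± 0.35, 12519 bases from Ugt8a, an enzyme of galactolipid synthesis whose difference was 0.51 ± 0.25. The 681-base interval chr15:68170864-68171544_R read -1.74, -2.25 and -1.93 in labelled db/m and -2.99, -2.71 and -2.91 in labelled db/db. It had the tightest arrays of these members, with a difference of 0.89 ± 0.16, and its nearest gene was Zfat, a zinc finger protein 117322 bases away. Also higher were chr8:49237358-49246495_R (1.09 ± 0.32), chrX:7560535-7560896_R (0.92 ± 0.24) and chr4:33375464-33377138_R (0.91 ± 0.34). The remaining one, chr17:88225376-88238756_F (0.96 ± 0.32), was the only forward-strand member among the 8, and its highest array labelled db/db was again replicate 3, at 0.59 against 0.65 for the lowest array labelled db/m.

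Among the members that were lower, chr16:17833211-17835112_F led. It read -0.52, 0.17 and -0.99 in labelled db/m and 0.80, 0.80 and 0.45 in labelled db/db. Every array labelled db/m lay below every array labelled db/db, and the difference was -1.13 ± 0.29 (limma adjusted p = 0.240). Car15, a membrane-anchored carbonic anhydrase 257 bases away on the opposite strand, differed by -0.37 ± 0.35. The smallest unadjusted p of any member belonged to chr9:78104935-78116974_F, which read 5.69, 5.53 and 5.52 in labelled db/m and 6.54, 6.28 and 6.27 in labelled db/db. This is one of the brighter members, its arrays agreed closely within each group, and the difference was -0.78 ± 0.12. The nearest annotated gene on the same strand, Gm10639 at 36269 bases, was lower too (-0.51 ± 0.10), and the probe for the predicted gene that shares 20 bases with this member differed by -0.08. Another member on that strand, in the overlapping interval chr9:78107225-78118850_F, shares 23 bases with the same predicted gene. Its difference was -0.25 (limma unadjusted p = 0.227).

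The others in the lower group were spread over the genome and over signal levels. They were chr16:8738782-8830148_R (-0.73 ± 0.20), chr2:155269145-155303251_F (-0.72 ± 0.21) and chr8:91569369-91594119_F (-0.68 ± 0.19) at intermediate signal. Near the lower end of the signal range lay chr7:140012053-140012509_R (-0.84 ± 0.31), chr12:76769763-76770169_R (-0.79 ± 0.18) and chr4:98943050-98959998_F (-0.69 ± 0.21).

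**Figure D3:**
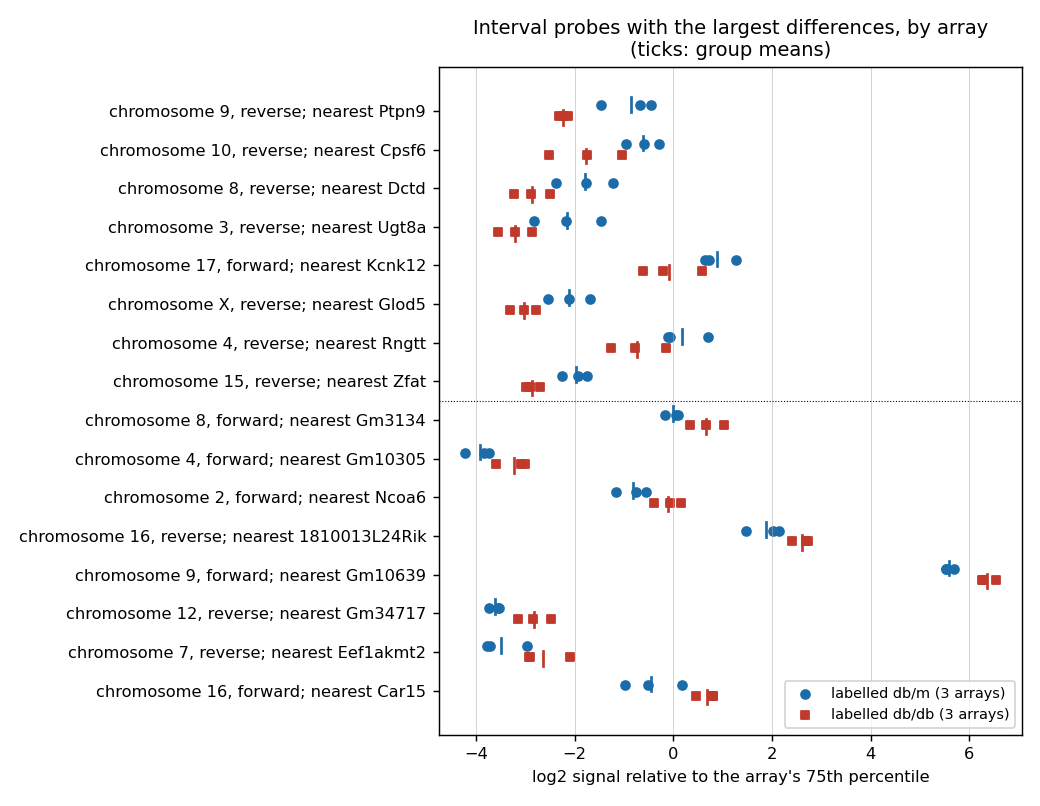
Log2 signal relative to the 75th percentile of the array (x axis) on the 3 arrays labelled db/m (blue circles) and the 3 labelled db/db (red squares) for the 8 members with the largest increase (top) and the 8 with the largest decrease (bottom) among those detected on every array whose groups do not overlap; short vertical lines are group means. The gap between groups is widest for the top row (nearest Ptpn9, 1.36) and the bottom row (nearest Car15, -1.13).

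For the 6 members dim on every array of 1 group, the fold is a bound, taken from the mean of the brighter group over, on each array of the dimmer group, the higher of the probe's own signal and the dimmest signal with a call above background. The largest was chr7:69005291-69007813_R, at -3.15, -2.52 and -3.00 in labelled db/m and -4.01, -4.83 and -4.36 in labelled db/db, where no array reached a call above background. It was at least 2.12-fold higher in labelled db/m. In the opposite direction chr8:122947917-122948153_F, inside the gene Gse1 as judged by its probes, had no such call in labelled db/m and was at least 1.70-fold higher in labelled db/db. The probes of Gse1 itself differed the other way, by 0.34 ± 0.15 and 0.24 ± 0.32. The remaining members of this kind were at least 1.48-fold (chr3:84610558-84611133_R), 1.43-fold (chr1:94077221-94091396_R), 1.34-fold (chr2:181024098-181039073_R) and 1.09-fold (chr18:63525907-63526504_R) higher in labelled db/m.

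The largest fitted difference of any member rested on 2 arrays. For chr6:23105525-23118900_R the values were -2.84, -2.98 and -2.96 in labelled db/m and -6.08, -6.11 and -2.88 in labelled db/db. Labelled db/db replicate 3 was as high as the arrays labelled db/m, and the slide 3 arrays, which had no call above background, made the fitted difference of 2.09 ± 0.83. With dim arrays raised to the detection limit it was 0.58. The largest difference among members detected on every array was that of chr14:30758342-30759669_R, which read 0.45, 1.93 and 1.66 against -1.16, -0.97 and 0.77. Its groups overlapped, since labelled db/db replicate 3 was above labelled db/m replicate 1. The difference of 1.80 ± 0.60 turned to -0.32 within slide 1. Of the 186 higher members at an unadjusted p under 0.05, 116 (62.4%) had replicate 3 as the highest array labelled db/db. That share was 57.3% over all members and 27.2% over all tested probes. Whether slide, depth of signal or the mouse accounts for this was not tested.

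Differences followed signal, among members and among all other probes alike. With all tested probes divided into 4 equal bins by mean signal, 813 members fell in the dimmest bin, 539 and 308 in the next ones and 152 in the brightest. The median difference of members was 0.23, 0.15, 0.05 and -0.07 from the dimmest bin to the brightest. Over all other tested probes it was 0.14, 0.04, -0.06 and -0.14. Members were above other probes in each bin, and their signals were lower (median -1.84 against -0.24 over all tested probes). The bins include 211 members that passed the rule in labelled db/m alone (median difference 0.54) and 29 in labelled db/db alone (-0.19). Other probes that entered in these ways are included as well. Members detected in both groups were not binned separately. How far the entry rule made the distance between members and other probes within bins was not tested.

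**Figure D4:**
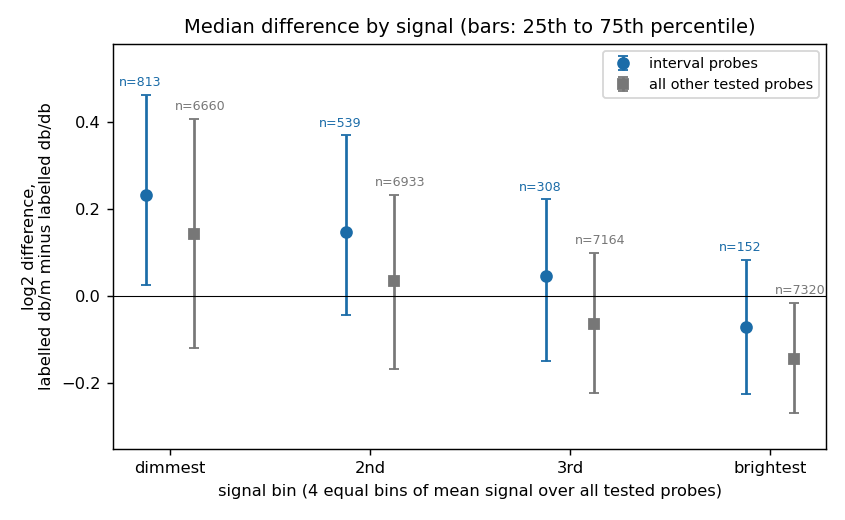
Median log2 difference (labelled db/m minus labelled db/db) of interval probes (circles) and all other tested probes (squares) by bin of mean signal over all tested probes; bars span the 25th to the 75th percentile of probes and n is the number of probes. Medians fall from 0.23 to -0.07 for interval probes and from 0.14 to -0.14 for other probes from the dimmest to the brightest bin. Probes that passed the rule in labelled db/m alone or in labelled db/db alone are included.

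Both strands were detected about equally often, 39.9% of forward and 41.5% of reverse interval probes. Reverse-strand members had a median difference of 0.16, with 111 higher (12%) and 37 lower (4.01%) at an unadjusted p under 0.05. Forward-strand members had a median of 0.12, with 75 higher (8.44%) and 46 lower (5.17%). Over all tested probes the shares were 6.9% and 10.8%. Among members detected in both groups the medians were 0.13 and 0.09. There 9.19% of reverse members were higher and 4.22% lower, and 6.39% of forward members were higher and 5.74% lower. Over all probes detected on 6 arrays the shares were 5.50% and 11.2%. No test was made between strands. Leaving out 1 array moved both medians together, the reverse one between 0.09 and 0.24 and the forward one between 0.05 and 0.22. The gap between strands was smaller than these moves, and the reverse median stayed above the forward one under every alternative.

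Of 832 intervals probed on both strands, 216 had a member on each strand, 205 on the reverse strand alone, 174 on the forward strand alone and 237 on neither. Within the 216, the differences of the 2 strands did not follow each other across intervals (Pearson r 0.02, Spearman rho 0.06, n = 216 intervals on the same 6 arrays), although 133 of 216 pairs shared a sign. An unadjusted p under 0.05 was found on both strands in 7 of the 216 intervals, on only 1 strand in 48 and on neither in 161. Over all tested probes 6.9% were higher and 10.8% lower at that p. Whether 7 exceeds the number that unlinked strands would give was not tested. In 4 of the 7 intervals the strands had opposite signs. In chr4:98943050-98959998, the forward probe read -3.83, -3.73 and -4.21 in labelled db/m and -3.01, -3.08 and -3.60 in labelled db/db. The reverse probe, complementary to it over 35 bases, read -0.84, 0.14 and -0.62 against -1.49, -1.94 and -0.64. The forward probe was lower by 0.69 on the log2 scale with groups apart, and the reverse probe was higher by 0.92 ± 0.38 with overlapping groups, a difference that became -0.20 with slide as a block.

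The other discordant pairs were cleaner. On chr7:112934153-112943178, 15167 bases from Mrpl17, a protein of the mitochondrial ribosome, the forward strand read 4.38, 4.43 and 4.23 against 4.79, 4.54 and 4.79, and the reverse strand -1.48, -1.27 and -1.31 against -2.44, -2.01 and -1.71. The groups were apart on both strands, with differences of -0.36 ± 0.12 and 0.70 ± 0.20. In chr14:67585234-67596823, 7254 bases from the mitophagy receptor gene Bnip3l, they were 0.34 ± 0.14 (forward) and -0.40 ± 0.11 (reverse). In chr2:155269145-155303251, 5280 bases from Ncoa6, a nuclear receptor coactivator, they were -0.72 ± 0.21 (forward) and 0.39 ± 0.14 (reverse). Both strands were higher in chr16:23992037-24001037, 24198 bases from the transcriptional repressor gene Bcl6 (0.88 ± 0.25, and 0.85 ± 0.15 for a reverse probe detected on 1 array labelled db/db). They were higher as well in the Snhg18 interval, whose forward probe was detected on 2 arrays labelled db/db. Both strands were lower in chr6:116092274-116144199 (-0.35 ± 0.13 and -0.30 ± 0.12).

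Probes of 1 strand resembled each other more. In 90 cases of an interval and strand with at least 2 members, the 2 brightest probes had differences with Pearson r 0.45 and Spearman rho 0.47 (n = 90, same arrays), and 61 of 90 shared a sign. The median spread of differences within such a strand was 0.18 and the largest was 1.03, on the forward strand of chr4:98943050-98959998, where a second probe differed by 0.34 ± 0.26. The next was in chr8:91569369-91594119, which had 5 members and holds a probe for the predicted gene Gm3134. Its forward-strand differences were -0.68 ± 0.19, -0.46 ± 0.17 and 0.33 ± 0.26, and its reverse-strand differences were 0.65 ± 0.31 and 0.76 ± 0.36. The first pair of probes had groups that did not overlap, and in the other 3 the groups overlapped only through labelled db/db replicate 3. The other intervals with the most members were chr14:22267795-22319045, where 1 of 5 members had an unadjusted p under 0.05 (forward, -0.28 ± 0.11), and chr5:96591892-96606467, where 0 of 4 did.

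**Figure D5:**
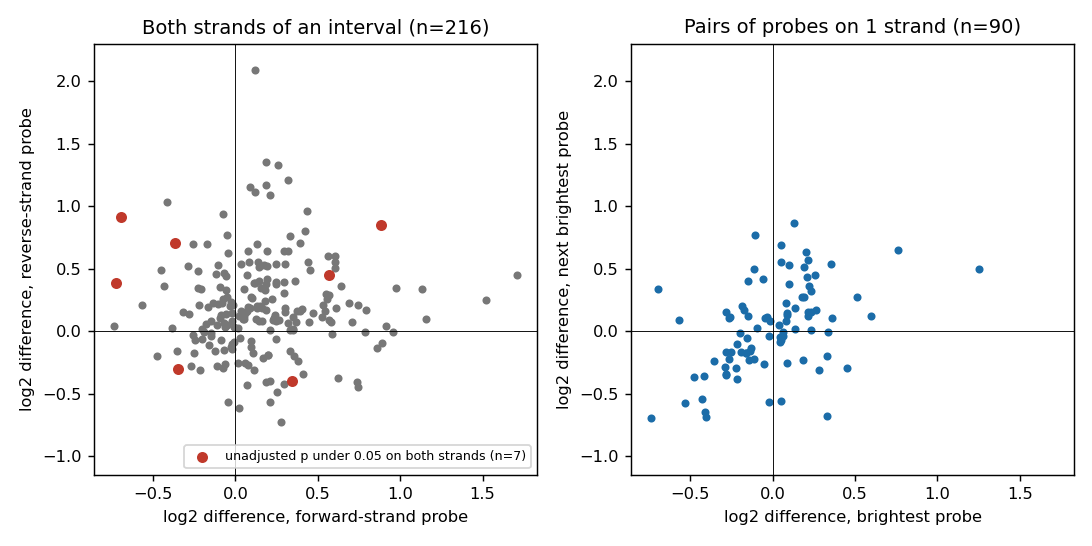
Log2 differences (labelled db/m minus labelled db/db) of pairs of interval probes: forward against reverse strand of the same interval for 216 intervals (left; red, the 7 with an unadjusted p under 0.05 on both strands), and the 2 brightest probes of the same interval and strand for 90 cases (right). Points on the left show no trend (Pearson r 0.02) and points on the right rise together (Pearson r 0.45).

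The intervals are not all free of genes in current annotation. Distances were taken from the interval to the nearest of 44633 mapped gene probes on the array. A gene probe lay inside the interval for 405 members, within 10000 bases for 518, within 100000 bases for 777 and farther away for 112. Of the 375 interval strands with a gene probe inside, 164 held one of a gene that RefSeq classes as long noncoding RNA and 155 one of a protein-coding gene. Detection was 45%, 40.9%, 39.3% and 36.5% in these classes, from inside to farthest. The median difference was 0.13, 0.13, 0.15 and 0.21. Members at an unadjusted p under 0.05 were 28 higher (6.91%) and 25 lower (6.17%) inside, 51 (9.85%) and 25 (4.83%) within 10000 bases, 88 (11.3%) and 29 (3.73%) within 100000 bases, and 19 (17.0%) and 4 (3.57%) beyond. Over all tested probes the shares were 6.9% and 10.8%, so the higher share inside was that of the background. Some of these members had entered through labelled db/m alone. Among those detected in both groups the medians were 0.10, 0.10, 0.12 and 0.14 from inside to farthest. The higher shares were then 5.60%, 7.14%, 8.74% and 13.0%, and the lower shares 6.16%, 5.36%, 4.15% and 4.35%. Over all probes detected on 6 arrays the shares were 5.50% and 11.2%. Near members (up to 10000 bases) had a median of 0.13 and far members 0.16.

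Where the gene probe lay inside on the same strand, the differences of interval and gene had Pearson r 0.25 and the same sign in 96 of 150 cases. On the opposite strand r was 0.05 (65 of 117 with the same sign). For genes 1 to 10000 bases away r was 0.01 on the same strand (n = 242) and 0.08 on the opposite strand (n = 151). These are correlations across genes that share the same arrays. The highest value, 0.65 for opposite-strand genes over 100000 bases away, came from 26 cases.

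Of 705 members near a tested gene, both the interval and the gene had an unadjusted p under 0.05 in 22 cases. In 18 of these the sign was the same. Over all tested probes 6.9% were higher and 10.8% lower at that p. Whether 22 exceeds the number that unlinked probes would give was not tested. One was a probe of chr17:35080914-35090009_R with 1110038B12Rik inside it on the same strand, which read 0.83, 0.82 and 0.59 in labelled db/m and 1.44, 1.32 and 1.18 in labelled db/db. Its groups were apart, and the interval and the gene probe differed by -0.57 ± 0.13 and -0.45 ± 0.12. A second member of that interval and strand did not follow it (0.09 ± 0.20, groups overlapping). Acad12, of the acyl-CoA dehydrogenase family of fatty acid oxidation, lay inside chr5:122047900-122065325_R (-0.62 ± 0.18, above background on 1 array labelled db/m) and inside the overlapping chr5:122048289-122068947_R (-0.25 ± 0.10), and its brighter probe differed by -0.56 and its other probe by 0.33. Also lower with their genes were chr11:119797116-119804012_R with 2900060N18Rik (-0.56 ± 0.19 and -0.45 ± 0.15) and chr3:21973306-21974266_R with 2810416G20Rik, 345 bases away (-0.43 ± 0.14 and -0.47 ± 0.16). On the opposite strand to the gene inside it, chr4:128727332-128735227_F was higher together with the brighter probe of 1700086P04Rik (1.52 ± 0.42 and 0.46 ± 0.15), whose other probe differed by 0.16. It was above background on 1 array labelled db/db, and with dim arrays raised to the detection limit its difference was 0.995 on the log2 scale. Opposite in sign was chr17:17462450-17488725_F, lower by 0.47 on the log2 scale while Gm38396, 5894 bases away, was higher by 0.46.

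Several intervals hold the annotated noncoding genes for which an independent probe exists. Snhg18, a small nucleolar RNA host gene, has 3 members in and around it, and all were higher in labelled db/m. On its own strand, chr15:32167516-32174417_R read 0.61, 0.31 and 0.49 in labelled db/m and -0.11, -0.04 and 0.21 in labelled db/db. The groups were apart, with a difference of 0.45 ± 0.14. On the opposite strand, chr15:32167516-32174417_F (0.57 ± 0.18) and chr15:32167516-32174427_F (0.99 ± 0.31) were higher too, but these probes share 58 bases and are not separate measurements of a transcript. Each was above background on 2 arrays labelled db/db, and so passed the rule through labelled db/m alone, where it was higher. With dim arrays raised to the detection limit their differences were 0.46 and 0.91. The gene's own probe differed by 0.21 ± 0.12, with groups apart.

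For Snhg3, another host gene of small nucleolar RNAs, the member chr4:131905739-131910814_F lies on the opposite strand. It read 1.31, 1.13 and 0.83 against 1.82, 1.32 and 2.16, so that the groups touched without overlapping, and it was lower by 0.67 on the log2 scale, as was the gene's own probe (-0.29 ± 0.11). These regions were chosen after their values were seen. In the wider list of 40 annotated long noncoding RNA genes, 25 were tested, with a median difference of -0.05, 4 higher (16%, background 6.9%) and 3 lower (12%, background 10.8%) at an unadjusted p under 0.05, and 0 at an adjusted p under 0.05. Those higher were Dnm3os, an antisense transcript of Dnm3 that carries microRNAs, Meg3, an imprinted maternally expressed gene (0.70 ± 0.24), Snhg15 (0.64 ± 0.18) and Dleu2, the host of Mir15a and Mir16-1 (0.45 ± 0.15). Dnm3os was above background on 0 arrays labelled db/db, so its fold is a bound, at least 1.44-fold higher in labelled db/m. Those lower were Snhg1 (-0.43 ± 0.12), Snhg6 (-0.36 ± 0.12) and Snhg3.

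The 6 members with the highest mean signal were chr14:78924115-78938125_F (mean log2 signal 7.63), chr17:17481706-17482457_R (7.50), chr6:83368261-83407280_F (7.44), chr4:33364774-33364898_R (7.35), chr11:22681800-22707775_R (7.24) and chr12:73838608-73862621_R (7.13). Only chr17:17481706-17482457_R, which holds AATAAA and lies inside the interval of the lower member chr17:17462450-17488725_F on the other strand, had an unadjusted p under 0.05. It read 7.32, 7.43 and 7.36 in labelled db/m and 7.62, 7.65 and 7.59 in labelled db/db, a small difference of -0.25 ± 0.10 with groups apart. Of the intervals detected on both strands, the 5 whose dimmer strand was brightest were chr12:73838608-73862621, chr15:79764481-79809909, chr5:34696192-34722842, chr13:48620882-48643532 and chr7:108209996-108216032, and none of their 10 probes had an unadjusted p under 0.05. The largest difference there, 0.70 ± 0.37 for chr15:79764481-79809909_R, came with labelled db/db replicate 3 at 2.38 and the other arrays of its group at 1.07 and 0.91.

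Of the members, 25 share 20 or more bases in a row, on the same strand, with a probe for a gene or transcript, and 6 of them are among the 25 brightest members. Next to the near copies of Cox5b and Rps29 shown above stand chrX:98658045-98677545_F with Anapc13, a subunit of the anaphase-promoting complex, and chr19:56820850-56837925_R with the cytokine gene Mif. In 23 cases both probes were tested, and the differences had the same sign in 21, with Pearson r 0.72 (n = 23, same arrays). For example chr14:44284425-44300475_F was higher by 0.51 ± 0.16, and Nudt4, a nudix hydrolase with which it shares 20 bases, by 0.28. For chr11:60728207-60745369_R (0.78 ± 0.23) and Btnl10 the gene probe's difference was 0.52, and for chr1:74084292-74138492_F (0.79 ± 0.25) and Plekha6 it was 0.35. For chr1:139856545-139857204_F (0.95 ± 0.21) the partner is the fibrillin gene Fbn2, which was above background on 0 arrays labelled db/db and at least 1.08-fold higher in labelled db/m. Opposite in sign were chr10:97196521-97207471_F (0.92) with Saraf (-0.01) and chr11:119794849-119803349_R (-0.44) with Gm11767 (0.13). In some cases the partner probe maps inside the interval itself, as with Tusc3, Snx6, Pvt1 and Gm11767. Which locus the hybridised RNA came from cannot be told from the signal. Some of these are also among the 203 members complementary over 20 or more bases to another probe, which in 145 cases is the other strand of the same interval.

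The sequences of 53 interval probes, 23 of them members, lie whole inside a RefSeq promoter window of 250 bases before to 50 bases after a gene start (assembly GRCm38.p6, matched by sequence), 9 on the strand of the gene and 15 on the other, with 1 member between divergent genes counted in both. One of them, chr3:35831966-35841638_F, on the strand opposite to Dcun1d1, a cofactor of cullin neddylation, read -0.07, -0.02 and -0.21 in labelled db/m and 0.17, 0.10 and 0.49 in labelled db/db. Its groups were apart with a difference of -0.36 ± 0.14. A further member in a promoter window covers the start of Kis2, a microRNA host gene, from the opposite strand. This probe, chrX:50087925-50101700_F, was well above background on all 6 arrays (-1.12 to -0.36), whereas the probe of the same interval on the Kis2 strand, which carries the Mir363 hairpin bases, was well above background on 0 arrays. The probe with the Mirlet7c-2 hairpin bases was also detected on 0 arrays. Other probes that share bases with a hairpin on its own strand were well above background on all 6 arrays. These were chr8:91471819-91551119_F with 58 bases of Mir8110 (log2 difference 0.12) and chr3:65463150-65463487_F with 22 bases of Mir8120 (0.21).

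Within 10 Mb of the Lepr probes, where animals of different db genotype may carry different haplotypes, 11 members were measured. Their median difference was 0.33, and 1 was higher and 1 lower at an unadjusted p under 0.05, both from the interval chr4:98943050-98959998 described above.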

How the data were processed

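Total RNA of renal cortex was labelled with Cy3 and hybridised to Agilent arrays, 1 per mouse. The authors deposited scanner files with a background-subtracted intensity per spot (Agilent Feature Extraction 10.7.1.1, per the labels) and a matrix of log2 values, deposited by the authors, that had been brought to nearly the same distribution in every array. Coordinates, names and probe sequences are those of the scanner files (mm9). No genome of that build was used here, so distances run to mapped gene probes on the array. Gene classes, promoters and hairpins are those of RefSeq (GRCm38.p6), without its coordinates.

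Control spots and 135 probes with outlier flags were removed and replicate spots averaged, and log2 intensity was set relative to each array's 75th percentile. The 29889 probes called above background on every array of at least 1 group were fitted in limma 3.58.1 (R 4.3.3) with lmFit and eBayes, with Benjamini-Hochberg adjustment over all of them. Each fold is on this log2 scale. A gene stands for its brightest tested probe. The procedure was tested on simulated data. No probe was saturated. Precision is limited by the 3 arrays per group. Tables were made with Python 3.11.15 and pandas 2.3.3.

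The members, lists and tests were chosen with earlier results of these data known. Regions were named by a rule: the 8 largest differences in each direction among members detected on all 6 arrays with groups apart and an unadjusted p under 0.05, the 6 largest bounded folds, the 6 brightest members, the 5 intervals brightest on both strands, the 3 intervals with the most members, members within 10 Mb of Lepr with an unadjusted p under 0.05, the 6 best pairs with a gene within 10000 bases, and listed long noncoding RNA genes with an unadjusted p under 0.05. Regions named for both strands, for bases shared with a gene or promoter, for Snhg18 or Snhg3, or for the largest differences were chosen after their values were seen. Alternatives were quantile normalization, median centring, normexp with an offset of 50, the methods' t-test, detection on all 6 arrays or no filter, trend and robust variance, the deposited matrix, slide as a fixed or random block, the replicate number as a block, leaving out each array, and 50000 bases as near. Raising dim arrays to the detection limit, keeping 1 probe per interval and strand, and leaving out probes with shared bases were added after the data had been seen.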

Additional observations from a re-analysis of the deposited data

How the results depend on the processing

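With 3 arrays per group and many members near the detection limit, small differences could not be resolved. As reported, 186 members were higher and 83 lower at an unadjusted p under 0.05 (background over all tested probes 6.9% and 10.8%). Of these, 29 and 2 also passed 2-fold (background 0.783% and 0.177%), and 0 passed an adjusted p of 0.05. The higher count was 100 with quantile normalization (background 5.16%), 99 with the deposited matrix (background 5.16%) and 99 with median centring (background 3.02%). It was 115 with normexp (background 4.97%), 81 by the methods' t-test (background 4.28%) and 89 with slide as a block (background 4.55%). The lower count was 176 with median centring (background 19.3%) and 176 with slide as a block (background 5.16%). Past 2-fold, higher and lower counts were 11 and 4 (quantile), 3 and 1 (normexp), 10 and 1 (all 6 arrays), and 19 and 40 (slide as a block). The higher count past 2-fold was 18 (median centring), 6 (the methods' t-test), 12 (deposited matrix) and 44 (slide as a random block).

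Median differences turned negative under 2 alternatives. With median centring they were -0.043 over all members, -0.065 forward, -0.026 reverse, -0.057 near and -0.032 far from genes. That scaling moved all probes to -0.21. With slide as a block, which rests on 1 array per group, they were -0.154, -0.181, -0.119, -0.157 and -0.144 in that order. The block also reversed chr14:30758342-30759669_R (-0.32), chr15:79764481-79809909_R (-0.30), chr4:98943050-98959998_R (-0.20) and in chr8:91569369-91594119 a forward (-0.44) and a reverse probe (-0.38). Of 54 named regions with an unadjusted p under 0.05, 13 kept it with slide as a block and 36 by the methods' t-test. One that did not, chr7:140012053-140012509_R, went from -0.84 to -0.04 with the block. The cause was not tested.

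Leaving out 1 array gave 84 to 484 higher and 38 to 97 lower members, 0 to 11 at an adjusted p under 0.05, and 10 to 110 higher and 0 to 4 lower past 2-fold. The background at an unadjusted p under 0.05 then ran from 3.48% to 11.2% higher and from 4.01% to 13.1% lower. With the replicate number as a block there were 229 higher (background 8.35%) and 105 lower (background 13.6%). With each group's mean subtracted, same-numbered arrays correlated at 0.35, 0.15 and 0.05, and arrays with different numbers at -0.34 to 0.15. The numbers were not taken to pair mice.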
